A study of Homo sapiens with 18 samples.

Results

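The 9 genes described here are 3 kinases that SGC-GAK-1 is known to bind more weakly than its intended target, RIPK2, NLK and COQ8A (also named ADCK3), and 6 genes of the coenzyme Q pathway in which COQ8A acts, COQ8B, COQ2, COQ3, COQ5, COQ7 and COQ9. They were taken by gene symbol, which makes 9 of the 60656 genes in the table of read counts. RNA came from 2 lines of diffuse large B cell lymphoma, Ly1 of the germinal centre type (GCB) and U2932 of the activated type (ABC), so each type is represented by a single line. Each line had 3 groups of 3 libraries, which received the solvent DMSO, or 1 µM of SGC-GAK-1 over 12 h or 24 h. The compound inhibits GAK, a kinase named for its association with cyclin G. The labels name no genetic change in either line and no time for DMSO, and a single DMSO group per line served both times. Ly1 was grown in IMDM and U2932 in RPMI 1640, both with fetal bovine serum, antibiotics and plasmocin, so line and medium cannot be told apart. Whether replicates were separate cultures is not stated in the labels, so the p-values reflect only the spread among these libraries, which may be technical.

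Coenzyme Q is the lipid that carries electrons between complexes of the mitochondrial respiratory chain. COQ2 joins its polyprenyl tail to the ring precursor, and COQ3, COQ5 and COQ7 then modify the ring in a complex to which COQ9 belongs. COQ8A and COQ8B are atypical kinase-like proteins of the UbiB family that this complex needs. RIPK2 relays signals from the bacterial sensors NOD1 and NOD2 to NF-kappaB, and NLK is a serine/threonine kinase that phosphorylates TCF and LEF transcription factors. An inhibitor acts on the kinase protein, whereas the values below are messenger RNA.

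Library totals ran from 22549853 to 29386802 counts, and 3 counts, the most that a count of 0 allows, came to between 0.104 and 0.138 CPM (TMM-scaled counts relative to the library total), for counting error only. The members were far above that, at 155 to 1577 counts a library, and all 9 passed the filter on low counts in both lines. All 6 B cell markers were above 1 CPM on average in both lines, while each list of markers for non-B cells other than epithelium (T and NK cells, myeloid cells, and fibroblasts with endothelium) summed to at most 9.28 CPM in any library. The 5 epithelial markers summed to 3.49 to 5.83 CPM in Ly1 and 27.0 to 35.7 CPM in U2932, where EPCAM made up most of it. Summed GCB markers were higher in Ly1 (1202 to 1558 CPM) than in U2932 (490.3 to 673 CPM), though LMO2 and SERPINA9, 2 of the 5 GCB markers, averaged under 1 CPM in Ly1 and at least 1 CPM in U2932. Summed ABC markers were higher in U2932 (665 to 768 against 56.8 to 82.6 CPM).

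Sequence is shown for COQ8A, the member of the pathway that the compound binds, and for COQ7, whose level separated the lines. Both runs are RefSeq sequence of build GRCh38.p14, from 250 to 26 bases before the annotated start, 5′ to 3′ on the plus strand. COQ8A spans chr1:226897536-226987545 on hg38 in the count table, and its run, chr1:226940044-226940268, lies inside that span because the table's gene starts further upstream. COQ7 spans chr16:19067614-19080095, and its run, before the first of 4 listed starts, is chr16:19067364-19067588. Capitals mark the GC box GGGCGG and the CCAAT box CCAAT on either strand, so that CCGCCC and ATTGG count as well; the motifs do not overlap each other here.
COQ8A: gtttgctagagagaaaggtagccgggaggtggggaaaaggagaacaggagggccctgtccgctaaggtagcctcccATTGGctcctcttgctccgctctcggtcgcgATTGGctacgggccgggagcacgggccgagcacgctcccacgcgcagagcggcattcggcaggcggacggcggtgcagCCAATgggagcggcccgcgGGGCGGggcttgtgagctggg
COQ7: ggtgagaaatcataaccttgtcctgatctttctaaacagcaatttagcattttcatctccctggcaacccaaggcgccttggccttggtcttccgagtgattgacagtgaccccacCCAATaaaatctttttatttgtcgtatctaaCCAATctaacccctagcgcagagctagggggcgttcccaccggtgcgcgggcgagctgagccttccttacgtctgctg
The COQ8A run held 1 GC box and 3 CCAAT boxes, and the COQ7 run held 2 CCAAT boxes and no GC box. Among all 34786 different RefSeq windows of this length, 39.4% held a GC box and 30.3% a CCAAT box. The window of COQ5, also free of annotated UTRs, held 0 GC boxes and 0 CCAAT boxes and is not shown. These matches are descriptions of the letters and were not tested against expression.

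After SGC-GAK-1 no member passed the test at either time in either line. This count was 0 of 9 in each of the 6 comparisons within a line, by the quasi-likelihood test of edgeR with p-values adjusted over all genes (Benjamini-Hochberg) and by DESeq2. Of the genes it gave an adjusted p, DESeq2 called 0.725%, 4.21% and 0.00731% in Ly1 at 12 h and 24 h against DMSO and at 24 h against 12 h, and 0.0226%, 0.915% and 0.349% in U2932. At an unadjusted p under 0.05, edgeR gave 3 of the 54 values, COQ8A in Ly1 at 24 h against DMSO, COQ7 in Ly1 at 24 h against 12 h, and COQ8A in U2932 at 24 h against 12 h. Over all genes the test called 0.55% in Ly1 at 24 h against DMSO (77 of 14005) and 0% in the other 5 comparisons, so few genes of any kind were called. An unadjusted p under 0.05 was found for 6.13%, 16.5% and 10.3% of all genes in Ly1, at 12 h and 24 h against DMSO and at 24 h against 12 h, and for 3.42%, 11.3% and 8.42% in U2932. Libraries of the compared groups did not overlap for 1, 2 and 3 members in these Ly1 comparisons, where this held for 15.2%, 15.9% and 16.7% of all genes. In U2932 this was so for 0, 1 and 2 members, against 8.36%, 18.8% and 19.4% of all genes. Against DMSO the members' values lay between -0.25 and 0.40 on the log2 scale, with 95% intervals reaching from -0.55 to 0.85. The median size of a member's log2 difference at 24 h was 0.15 in Ly1 and 0.13 in U2932, against 0.18 and 0.14 over all genes tested. In bulk RNA, fewer cells with a transcript and less transcript per cell cannot be told apart.

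**Figure D1:**
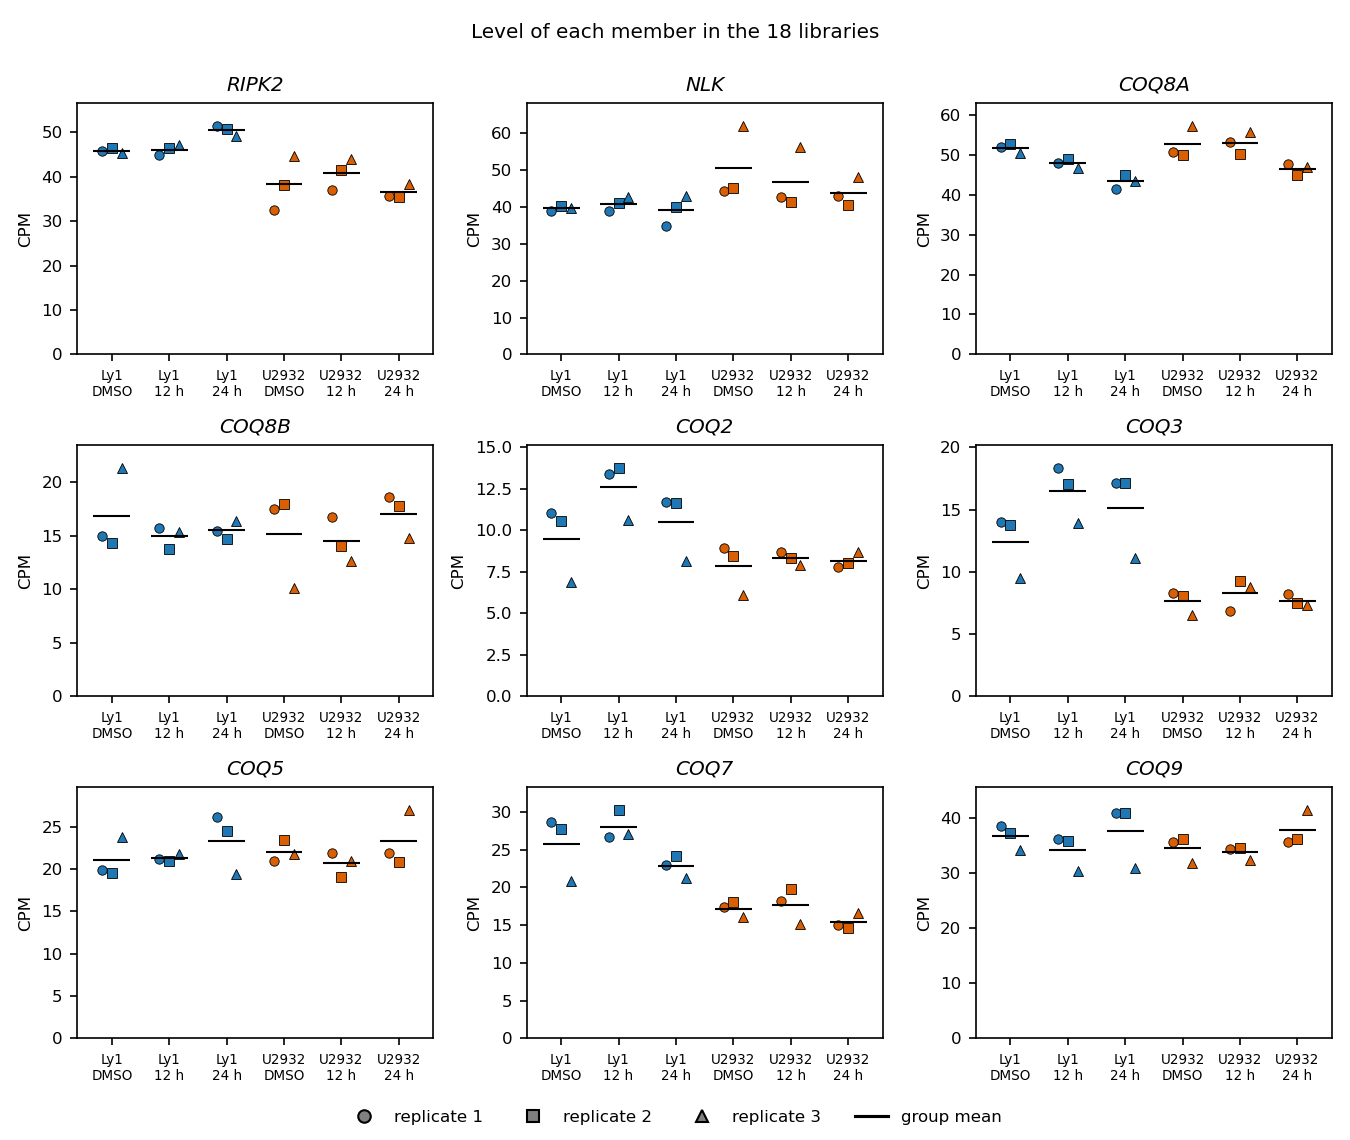
CPM of each member (vertical axis, from 0) in the 18 libraries, by line and treatment, with circles, squares and triangles for replicates 1, 2 and 3 and a line at the group mean. COQ8A sits lower at 24 h in both lines, COQ3 and COQ7 sit lower in U2932 than in Ly1, and several replicate 3 libraries stand away from the other two.

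Over the 54 values within a line, the lowest unadjusted p of the members was that of COQ8A in Ly1 at 24 h against DMSO. In Ly1 its 3 libraries gave 51.9, 52.7 and 50.3 CPM in DMSO, 48.0, 48.9 and 46.6 CPM at 12 h and 41.5, 45.0 and 43.5 CPM at 24 h. In U2932 they gave 50.7, 49.8 and 57.2 CPM in DMSO, 53.1, 50.2 and 55.7 CPM at 12 h and 47.6, 45.0 and 46.8 CPM at 24 h. All libraries at 24 h were below all DMSO libraries of their line, and in Ly1 the 12 h libraries lay between the other groups without overlap. The log2 difference at 24 h was -0.25 ± 0.08 in Ly1 (n = 3; ± on log2 differences is the SE throughout), with an adjusted p of 0.166 by edgeR. It was -0.15 ± 0.07 in U2932, with an adjusted p of 0.471 by the same test. At 12 h the differences were -0.11 ± 0.08 in Ly1 (adjusted p = 0.983 by edgeR) and 0.02 ± 0.07 in U2932 (adjusted p = 0.999 by edgeR). The 24 h difference in Ly1 passed the test without Ly1 24 h replicate 3 (-0.26, adjusted p = 0.0318 by edgeR), a fit that called 21.2% of all genes. Over the 13 alternative settings its adjusted p ran from 0.0021 to 0.517. The response of COQ8A did not differ detectably between the lines, at 0.08 ± 0.11 for U2932 over Ly1 at 24 h (95% interval -0.16 to 0.31).

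COQ8B, the paralog of COQ8A on chromosome 19 (40691530 to 40718207), was less abundant and noisier. Ly1 gave 14.95, 14.3 and 21.3 CPM in DMSO, 15.8, 13.8 and 15.4 CPM at 12 h and 15.5, 14.7 and 16.3 CPM at 24 h. U2932 gave 17.5, 17.9 and 10.2 CPM in DMSO, 16.7, 14.1 and 12.7 CPM at 12 h and 18.6, 17.8 and 14.8 CPM at 24 h. Replicate 3 in DMSO was the highest Ly1 value and the lowest U2932 value, and the groups overlapped in each comparison. The 24 h difference was -0.12 ± 0.16 in Ly1 and 0.19 ± 0.21 in U2932. The annotation places ITPKC over COQ8B on the opposite strand for 1096 bases, and the use of strand in counting is not given in the sources used here, so reads of the pair may be mixed; ITPKC averaged 8.14 CPM.

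RIPK2 (chromosome 8, 89757806 to 89791064) gave 45.8, 46.4 and 45.2 CPM in Ly1 DMSO, 44.8, 46.4 and 47.1 CPM at 12 h and 51.4, 50.6 and 49.2 CPM at 24 h. The 3 Ly1 libraries at 24 h were above the other 6, with a difference from DMSO whose 95% interval was -0.03 to 0.31 (adjusted p = 0.402 by edgeR). In U2932 RIPK2 gave 32.6, 38.1 and 44.6 CPM in DMSO, 37.1, 41.4 and 44.1 CPM at 12 h and 35.7, 35.3 and 38.4 CPM at 24 h. The U2932 groups overlapped, and its 3 DMSO libraries held both the lowest and the highest value. The test of a different response in the lines gave -0.21 ± 0.14 at 24 h for U2932 over Ly1 (adjusted p = 0.72 by edgeR), which was the lowest of the 18 such tests on members. None of the 18 was called by edgeR or DESeq2 (which called 0.00301% of all genes at 12 h and 0.351% at 24 h) or had an unadjusted p under 0.05, and edgeR called 0% of all genes at both times, with an unadjusted p under 0.05 for 2.5% at 12 h and 8.33% at 24 h.

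NLK (chromosome 17, 28041737 to 28196381) gave 38.9, 40.3 and 39.7 CPM in Ly1 DMSO, 38.8, 41.0 and 42.6 CPM at 12 h and 34.8, 39.9 and 43.0 CPM at 24 h. In U2932 it gave 44.3, 45.0 and 61.9 CPM in DMSO, 42.7, 41.4 and 56.2 CPM at 12 h and 43.1, 40.5 and 48.1 CPM at 24 h. Replicate 3 was the highest NLK library in each U2932 group, and treated and DMSO libraries overlapped in both lines. The 24 h difference was -0.01 ± 0.10 in Ly1 and -0.18 ± 0.15 in U2932.

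COQ2, the prenyltransferase (chromosome 4, 83261536 to 83284914), gave 11.03, 10.5 and 6.88 CPM in Ly1 DMSO, 13.4, 13.8 and 10.6 CPM at 12 h and 11.7, 11.7 and 8.13 CPM at 24 h. COQ3, an O-methyltransferase (chromosome 6, 99369401 to 99394195), gave 14.0, 13.8 and 9.52 CPM in Ly1 DMSO, 18.3, 17.1 and 14.0 CPM at 12 h and 17.1, 17.1 and 11.1 CPM at 24 h. For both genes replicate 3 was lowest in each Ly1 group, and the 12 h value exceeded the DMSO value within each replicate number. These had the largest differences from DMSO of the members, 0.40 ± 0.20 each at 12 h in Ly1, with adjusted p of 0.867 for COQ2 and 0.859 for COQ3 by edgeR. In U2932 COQ2 lay between 6.09 and 8.94 CPM and COQ3 between 6.56 and 9.29 CPM in the 9 libraries, with the groups overlapping. Without the replicate 3 libraries of all groups, edgeR called both genes in Ly1 at 12 h, COQ2 at 0.33 (adjusted p = 0.0449) and COQ3 at 0.35 (adjusted p = 0.0182), in a fit that called 9% of all genes. With replicate number as a block, a fit that called 0% of all genes in Ly1 at 12 h, neither was called. COQ2 was then at 0.42 (adjusted p = 0.28 by edgeR) and COQ3 at 0.41 (adjusted p = 0.249 by edgeR).

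COQ5, a C-methyltransferase (chromosome 12, 120503279 to 120534434), lay between 19.4 and 26.1 CPM in Ly1 and between 19.1 and 27.0 CPM in U2932. RNF10 overlaps it on the opposite strand for 955 bases and averaged 169 CPM, so COQ5 counts may hold RNF10 reads and are uncertain. COQ9, a lipid-binding partner of COQ7 (chromosome 16, 57447425 to 57461270), lay between 30.4 and 40.9 CPM in Ly1 and between 31.9 and 41.5 CPM in U2932. The 24 h difference from DMSO of COQ5 was 0.15 ± 0.13 in Ly1 and 0.10 ± 0.11 in U2932. That of COQ9 was 0.03 ± 0.12 in Ly1 and 0.15 ± 0.09 in U2932.

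COQ7, the hydroxylase that acts on demethoxy-coenzyme Q, gave 28.7, 27.7 and 20.9 CPM in Ly1 DMSO, 26.7, 30.3 and 27.1 CPM at 12 h and 23.0, 24.2 and 21.3 CPM at 24 h. In U2932 it gave 17.4, 18.05 and 16.1 CPM in DMSO, 18.2, 19.7 and 15.1 CPM at 12 h and 15.03, 14.6 and 16.6 CPM at 24 h. Its 24 h libraries were below its 12 h libraries in Ly1, at -0.29 ± 0.13 (adjusted p = 0.482 by edgeR). In U2932 the same comparison gave -0.18 ± 0.12 (adjusted p = 0.736 by edgeR), with overlap.

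**Figure D2:**
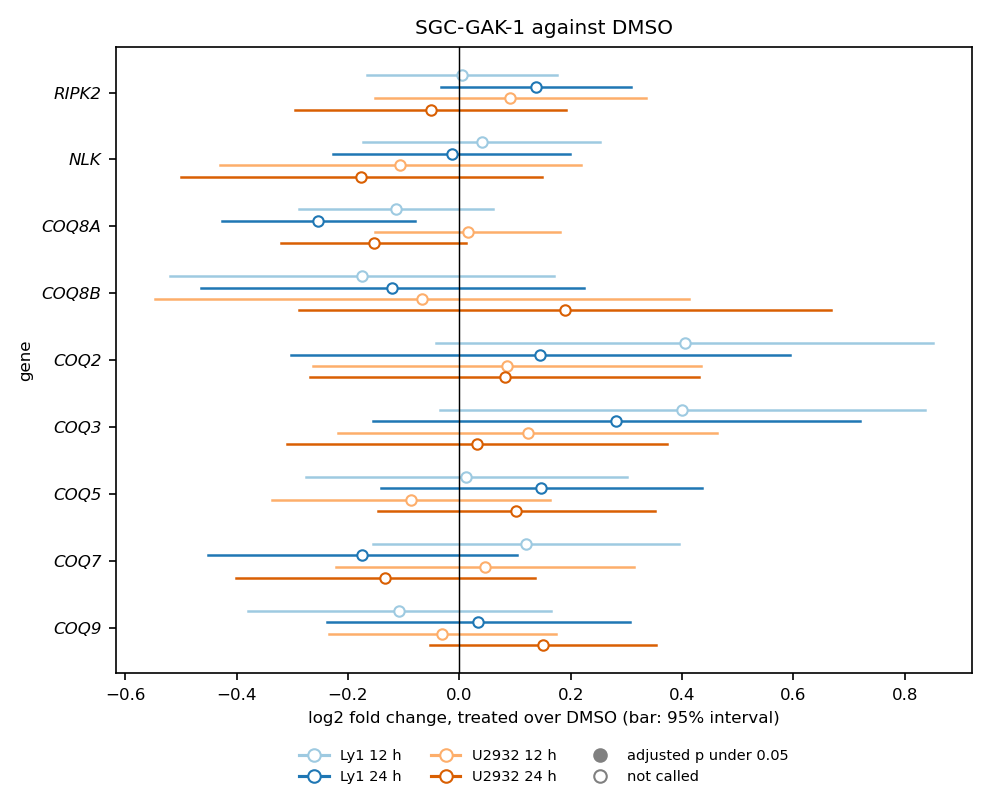
Log2 fold change of each member at 12 h and 24 h against DMSO (horizontal axis) in Ly1 and U2932, with 95% intervals from edgeR. All 36 points are open, that is, not called; of the 36 intervals, the 1 for COQ8A in Ly1 at 24 h leaves out 0.

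The replicate 3 libraries stood apart for several members, and the treatment counts depended on them. In Ly1 DMSO replicate 3 differed from the mean of replicates 1 and 2 by -0.65 for COQ2, -0.54 for COQ3, -0.43 for COQ7 and 0.55 for COQ8B on the log2 scale. In U2932 DMSO it differed by -0.80 for COQ8B, -0.52 for COQ2, 0.47 for NLK and 0.34 for RIPK2. Over the members of the DMSO groups the median size of this difference was 0.27 for Ly1 and 0.31 for U2932, and it was 0.27 for either line over all genes. Replicates 1 and 2 differed by a median of 0.05 and 0.04 over the members of the same groups, and by 0.10 and 0.12 over all genes. In treated Ly1 the median for replicate 3 over all genes was 0.14 at 12 h and 0.31 at 24 h. In treated U2932 it was 0.21 at both times. Replicates 1 and 2 differed there by 0.12 and 0.11 in Ly1, and by 0.11 and 0.09 in U2932. Over the members the replicate 3 medians were 0.07 and 0.21 in treated Ly1, and 0.14 and 0.16 in treated U2932. Without the replicate 3 libraries edgeR called 4 members in Ly1 at 24 h against DMSO, COQ8A (-0.27), COQ3 (0.31), COQ5 (0.37) and COQ7 (-0.25), in a fit that called 46.2% of all genes. In Ly1 at 24 h against 12 h it called 4, RIPK2 (0.17), COQ5 (0.27), COQ7 (-0.27) and COQ9 (0.19), with 41.7% of all genes. It called 1 in U2932 at 24 h against 12 h, COQ7 (-0.34), with 6.19% of all genes. Against DMSO it called 0 in U2932 at 12 h (2.86% of all genes) and at 24 h (9.01% of all genes). With replicate number as a block (same-numbered U2932 libraries deviated together), 4.41% of all genes were called in U2932 at 24 h (667 of 15138), and 0 of the 9 members; COQ8A then had an adjusted p of 0.209.

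**Figure D3:**
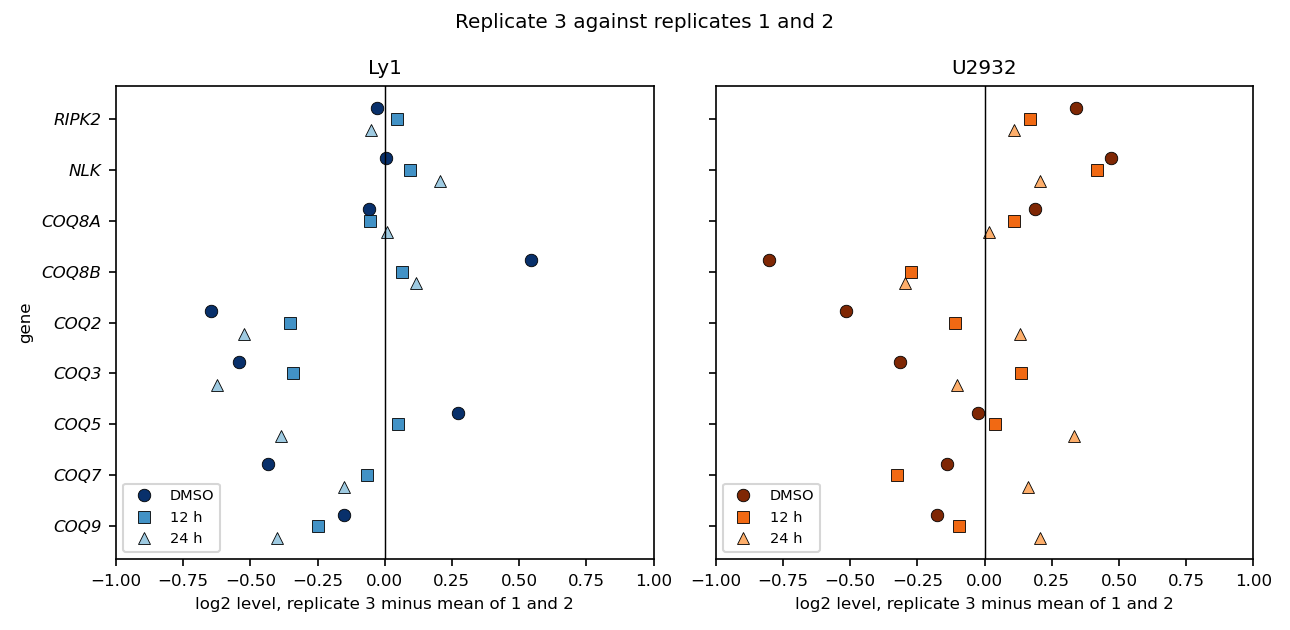
Log2 level of each member in replicate 3 minus the mean of replicates 1 and 2 (horizontal axis), for Ly1 on the left and U2932 on the right, by treatment. COQ2 and COQ3 lie left of 0 in all 3 Ly1 groups, NLK lies right of 0 in all 3 U2932 groups, and COQ8B in DMSO lies at 0.55 in Ly1 and -0.80 in U2932.

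Between the lines several members differed. In DMSO edgeR called 4 of 9 members, a share no greater than the 63% of all genes that it called. COQ3 was lower in U2932, at 7.62 ± 0.93 CPM (SD, n = 3) against 12.4 ± 2.52 CPM in Ly1, or 0.613 times. COQ7 was lower as well, at 17.2 ± 0.99 against 25.7 ± 4.25 CPM, or 0.667 times. On the log2 scale these were -0.71 ± 0.19 (adjusted p = 0.0031) and -0.58 ± 0.13 (adjusted p = 0.00056, both by edgeR). All 3 U2932 libraries lay below all 3 Ly1 libraries for both genes; 4 members had no overlap, against 65.4% of all genes. Both calls were made in all 15 settings examined, with COQ3 between -0.99 and -0.61 and COQ7 between -0.69 and -0.51. These 15 include the contrast of the lines at 12 h and at 24 h, which compares other libraries and is described below. The value of -0.99 for COQ3 is that at 12 h.

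RIPK2 was lower in U2932 DMSO (-0.25 ± 0.10, adjusted p = 0.0349) and NLK higher (0.35 ± 0.13, adjusted p = 0.0312, both by edgeR), and each call was lost in some settings. The RIPK2 call ended when Ly1 DMSO replicate 1, 2 or 3 or U2932 DMSO replicate 1 or 2 was left out, and without U2932 DMSO replicate 1 the value was -0.15 (adjusted p = 0.22 by edgeR). It also ended under DESeq2's size factors and in DESeq2 itself, with an adjusted p of 0.0572 in both, and without the filter on low counts (adjusted p = 0.168 by edgeR). The NLK call ended without Ly1 DMSO replicate 1 or 2, and without U2932 DMSO replicate 3 its value was 0.17 (adjusted p = 0.24 by edgeR). COQ8A differed by 0.02 ± 0.08 between the lines (95% interval -0.14 to 0.19), COQ5 by 0.06 ± 0.13 (-0.20 to 0.33) and COQ9 by -0.09 ± 0.11 (-0.32 to 0.15). The median size of the difference was 0.25 over the members and 0.66 over all genes.

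The lines were also compared in the treated libraries, which share no library with the DMSO groups. This was done after the data were seen. It used the same lines, media and fit of all 18 libraries as the DMSO contrast, so it was not an independent repeat. At 12 h edgeR called COQ3 (-0.99), COQ7 (-0.66) and COQ2 (-0.60), 3 of 9 members against 61.9% of all genes, and 5 members did not overlap, against 72.8% of all genes. At 24 h it called COQ3 (-0.98), COQ7 (-0.56) and RIPK2 (-0.47), 3 of 9 against 64.4% of all genes, and 4 members did not overlap, against 68.1% of all genes. NLK was at 0.20 and 0.16 at those times and was not called.

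**Figure D4:**
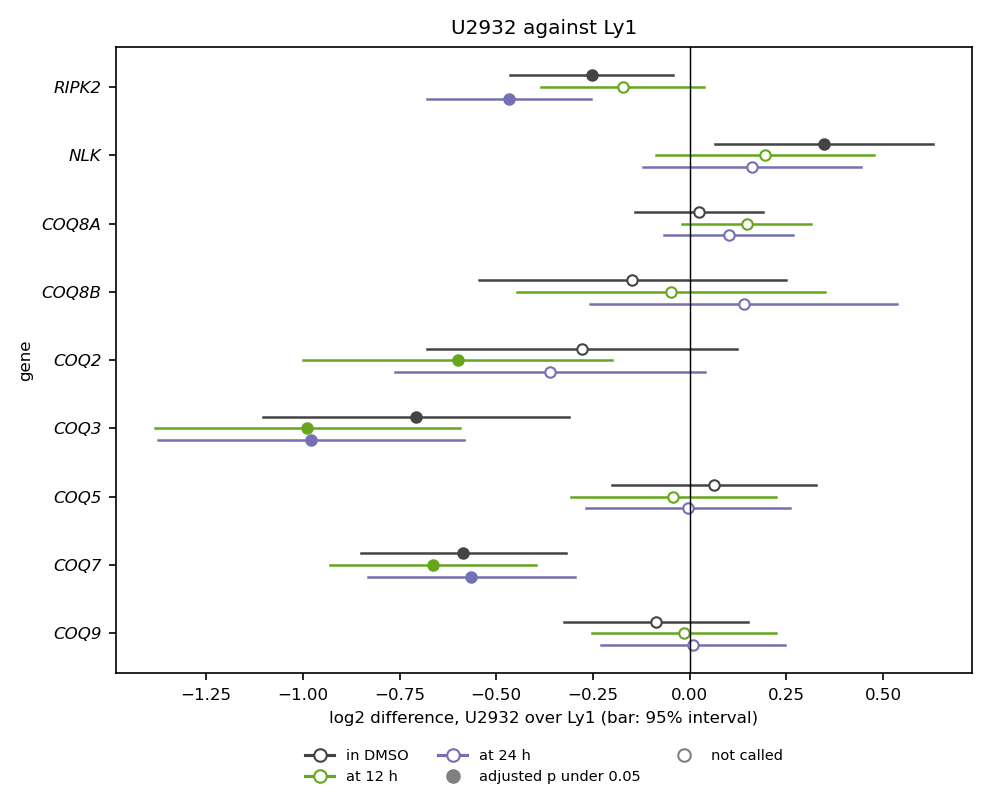
Log2 difference of each member, U2932 over Ly1 (horizontal axis), in DMSO, at 12 h and at 24 h, with 95% intervals from edgeR; filled points passed an adjusted p of 0.05. COQ3 and COQ7 are filled and below 0 at all 3 times, and COQ8A, COQ8B, COQ5 and COQ9 are open at all 3.

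Levels were ordered as CPM per kilobase of exon, with lengths as the union of all exons of a gene in GENCODE release 29. These were 7.797 kb for COQ8A and 1.458 kb for COQ3, which in plain CPM averaged 51.7 and 12.4 in Ly1 DMSO. The order therefore depends on the annotated exons, and the release behind the counts is not given. COQ5 counts may hold RNF10 reads, so its place is uncertain. RIPK2 was highest in all 6 groups, at 14.7 ± 0.19 in Ly1 DMSO and 12.3 ± 1.93 in U2932 DMSO (mean ± SD, n = 3). In Ly1 DMSO it was followed by COQ3 (8.52), COQ9 (8.49) and COQ5 (8.35), whose libraries overlapped, then NLK (7.49), COQ8A (6.63), COQ7 (6.25), COQ2 (3.42) and COQ8B (3.07). Of these neighbours, COQ8A overlapped COQ7, and COQ2 overlapped COQ8B. In U2932 DMSO the order was NLK (9.53), COQ5 (8.73), COQ9 (8.001), COQ8A (6.74), COQ3 (5.23), COQ7 (4.17), COQ2 (2.82) and COQ8B (2.77). There RIPK2, NLK, COQ5 and COQ9 overlapped each with the next, as did COQ2 and COQ8B. COQ3 thus ranked 2 in Ly1 and 6 in U2932 by mean level.

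COQ8A, COQ9 and COQ5 were among the steadier genes over the 18 libraries. The SD of their log2 level was 0.12, 0.13 and 0.14, and 5.14%, 7.41% and 9.47% of 9490 protein-coding genes with a mean of at least 5 CPM had a smaller one. The genes compared were not matched for level. The SD was 0.19 for RIPK2 and NLK, 0.23 for COQ8B, 0.32 for COQ2, 0.35 for COQ7 and 0.51 for COQ3, against a median of 0.32. Likeness of pattern was measured as the root mean square difference of centred log2 levels over the 18 libraries, which share lines and treatments. The closest members were COQ5 and COQ9 (0.129) and NLK and COQ8A (0.146), and the farthest were NLK and COQ3 (0.632). The paralogs COQ8A and COQ8B lay at 0.297. RNF10, which overlaps COQ5 on the opposite strand, was the gene second most like COQ5 of the 9490 (0.0904), and the part of RNF10 reads in the COQ5 pattern and its steadiness was not tested. Of the 9490 genes, those most like RIPK2 were YTHDF2 (0.0763), TRIM21 (0.079) and RRP36 (0.0797). Those most like NLK were TMBIM6 (0.0812), ATXN7 (0.0826) and MAGT1 (0.0917), and those most like COQ8A were MGAT1 (0.0714), NCSTN (0.0773) and AGGF1 (0.0791).

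The genes around the members were read from hand-written lists of 8 kinds. Apart from members, edgeR called 0 of the 72 listed genes tested in Ly1 and 0 of the 76 tested in U2932 in any treatment comparison. At 24 h against DMSO, 16 and 9 of them had an unadjusted p under 0.05 in Ly1 and U2932, where 16.5% and 11.3% of all genes did. DESeq2 called 0 and 1, against 4.21% and 0.915% of all genes. Without the replicate 3 libraries edgeR called 46 of 72 in Ly1 at 24 h against DMSO (46.2% of all genes), 42 of 72 at 24 h against 12 h (41.7%) and 8 of 72 at 12 h (9%). In U2932 it then called 12 of 76 at 24 h (9.01%), 12 of 76 at 24 h against 12 h (6.19%) and 1 of 76 at 12 h (2.86%), so the counts for the lists depended on these libraries as those for the members did. The gene that DESeq2 called was ADCK2, a mitochondrial UbiB protein like COQ8A, which was picked out after its value was seen. ADCK2 gave 57.5, 59.5 and 56.0 CPM in U2932 DMSO and 47.1, 42.3 and 44.5 CPM at 24 h, with all treated libraries below all controls. Its log2 difference was -0.35 ± 0.07, with an adjusted p of 0.23 by edgeR, 0.0129 by DESeq2 and 0.0201 with replicate number as a block. With the block edgeR also called ADCK5 (0.64), FDXR (0.59), TRAF2 (0.25), FOXO3 (-0.42) and RIPK1 (-0.48) in this comparison, 6 of 76 genes in all against 4.41% of all genes. A lower ADCK2 mean at 24 h was not particular to U2932. In Ly1 ADCK2 averaged 47.6 ± 2.15 CPM in DMSO and 37.6 ± 5.18 CPM at 24 h (SD, n = 3). There it was not called by edgeR or DESeq2.

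Genes that supply the isoprenoid tail, the mevalonate pathway, had a median of 0.24 in Ly1 at 12 h, with 8 of 9 above 0, and of -0.21 in U2932 at 12 h, with 1 of 9 above 0. The medians of all genes were -0.01 and 0.00, and no gene of the list was called by edgeR or DESeq2 at that time. At an unadjusted p under 0.05 it had 1 of 9 genes in Ly1 and 2 of 9 in U2932, against 6.13% and 3.42% of all genes. Without the replicate 3 libraries edgeR called 3 of 9 in Ly1 at 12 h (9% of all genes) and 0 of 9 in U2932 (2.86%). The test of a different response in the lines at 12 h called 0 of 9, with 2 at an unadjusted p under 0.05 by edgeR (2.5% of all genes) and 0 called by DESeq2. At 24 h against DMSO the mevalonate medians were 0.08 in Ly1, with 7 of 9 above 0, and 0.04 in U2932, with 6 of 9 above 0. The median line difference in response was -0.43 at 12 h and -0.08 at 24 h, so the opposite medians were not seen at 24 h. With the replicate 3 libraries left out, edgeR called 5 of 9 in Ly1 at 24 h (46.2% of all genes) and 4 of 9 in U2932 (9.01%). For the difference in response it then called 1 of 9 at 12 h (4.5% of all genes) and 5 of 9 at 24 h (26.6%). The 15 tested genes whose products use coenzyme Q had medians of 0.17 and 0.01 at 24 h in Ly1 and U2932, with 0 called in both by edgeR and by DESeq2. At an unadjusted p under 0.05 there were 6 of 15 in Ly1 and 0 of 15 in U2932, against 16.5% and 11.3% of all genes. Without the replicate 3 libraries edgeR called 12 of 15 in Ly1 (46.2% of all genes) and 1 of 15 in U2932 (9.01%). The 14 tested partners and substrates of NLK were picked out after their values were seen. Their median at 24 h against DMSO was -0.15 in Ly1, with 2 of 14 above 0. In U2932 it was -0.13, with 3 of 14 above 0. Medians of all genes were -0.01 and 0.00, and edgeR and DESeq2 called 0 in both. At an unadjusted p under 0.05 edgeR had 3 and 2 of 14, against 16.5% and 11.3% of all genes. With replicate 3 left out it called 9 of 14 (46.2%) and 2 of 14 (9.01%).

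Between the lines in DMSO, edgeR called 50 of the 76 listed genes that are not members, against the 63% of all genes. Of 8 other coenzyme Q synthesis genes 3 were higher and 3 lower in U2932, among them PDSS2, a subunit of the enzyme that makes the tail (-1.01 ± 0.12), COQ6, a monooxygenase (-0.61 ± 0.22), COQ4, a component of the complex (0.32 ± 0.09), and HPDL (1.76 ± 0.27). Of 15 genes that use coenzyme Q, 0 were higher and 6 lower, including AIFM2, a coenzyme Q reductase (-1.33 ± 0.14), ETFDH, which feeds electrons from fatty acid oxidation to it (-0.97 ± 0.11), and the complex III subunits UQCRB (-0.63 ± 0.13) and UQCRH (-0.56 ± 0.15). The median of these 15 was -0.22, against 0.02 over all genes. Of 9 mevalonate pathway genes 3 were higher, MVK (1.15 ± 0.17), IDI1 (1.08 ± 0.19) and MVD (0.65 ± 0.14), and 2 lower, with PMVK at -1.51 ± 0.12. In the UbiB family, ADCK5 (-1.24 ± 0.20) and ADCK1 (-0.98 ± 0.20) were lower and ADCK2 (0.28 ± 0.09) higher. In the treated libraries PDSS2 and HPDL were called between the lines at 12 h and at 24 h, COQ4 at 12 h only and COQ6 at neither time. There edgeR called 61.9% of all genes at 12 h and 64.4% at 24 h.

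The counts that follow stand against the same 63% of all genes called between the lines in DMSO. Of the 22 genes of NOD and RIPK2 signalling 8 were higher and 7 lower in U2932, including the adaptors TRAF5 (-3.19 ± 0.14) and TRAF2 (1.17 ± 0.08), TAB2 (-0.93 ± 0.08) and RBCK1, a subunit of the linear ubiquitin ligase (-1.13 ± 0.10). Among 4 RIP kinases, RIPK1 was lower with RIPK2 (-0.70 ± 0.18), and RIPK4, with no count in Ly1 DMSO and 0.419 CPM in U2932 DMSO, was called higher. Of 14 partners and substrates of NLK 5 were higher and 8 lower. HIPK2, a kinase that acts with NLK, averaged 194 CPM in U2932 and 0.948 CPM in Ly1, and STAT3 166 and 38.5 CPM. The transcription factors TCF7L2 and LEF1 were at 1.75 and 98.2 CPM in U2932, and at 77.3 and 368 CPM in Ly1. Of the 4 NAK kinases, the family of the intended target, BMP2K (1.67 ± 0.14) and GAK (0.60 ± 0.08) were higher. GAK itself lay between 40.4 and 43.4 CPM in the 9 Ly1 libraries and between 57.0 and 71.4 CPM in the 9 U2932 libraries, and was not called after treatment.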

How the data were processed

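The authors' deposited table holds read counts per gene, whole numbers in 18 libraries. Per the labels' protocols, the kit was NuGEN Universal Plus mRNA-Seq, amplification took 14 PCR cycles, and 2 NovaSeq runs were combined. Per the submitters' processing notes, cutadapt, STAR, Picard and hg38 were used. Not given in the sources used here are the counting tool, the annotation release, and how strand and duplicates were treated. Counts of PCR reads are not independent molecules, so floors cover counting error only. Replicate pairs differed by more than sampling noise (chi-square per degree of freedom 3.35 to 95.3 over 18 pairs), so none was counted as a repeat.

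Genes were tested with edgeR 4.0.16 (R 4.3.3), by its quasi-likelihood F test with robust dispersions, after TMM scaling and filterByExpr, and called at a Benjamini-Hochberg adjusted p under 0.05 over all genes tested. Treatments were fitted within a line on 9 libraries (14005 genes in Ly1, 15138 in U2932), and lines were compared on all 18 (16191 genes). CPM use TMM factors, and log2 levels a prior count of 2. The scripts were tested on simulated data with the same spread for every gene and no shift of replicate 3, so this checks the code and not the power in these data. At 24 h against DMSO edgeR recovered 87% (Ly1) and 88% (U2932) of simulated log2 changes of 1. Of changes of 0.5 it recovered 53% and 55%.

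Alternatives were DESeq2 1.42.0, its size factors, library totals, no filter, a replicate block, only the compared groups, and leaving out libraries. For the lines, the contrast at 12 h and at 24 h was added after the data were seen and is counted among them. Replicate numbers were taken to pair libraries where all 3 correlations of deviations from group means exceeded 0.1, a pairing that comes from the data and not the labels. They did so in U2932 (0.336 to 0.666 over its 3 comparisons) and in Ly1 for 12 h with DMSO (0.213 to 0.434) and 24 h with 12 h (0.1001 to 0.332), but not for Ly1 24 h with DMSO (0.0733 to 0.211) or the lines in DMSO (-0.0785 to 0.0211). The members and lists were chosen with earlier results of these data known. Named were all members, at most 4 called genes of smallest p per list, GAK, and the 3 genes most like each kinase. Promoter sequence is from RefSeq (6 members matched), and is shown for 2 of the 3 members whose window met no annotated UTR. Figures were drawn with matplotlib 3.10.9.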

Additional observations from a re-analysis of the deposited data

How the results depend on the processing

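The 0 members called within a line remained 0 under DESeq2, its size factors in edgeR, library totals, no filter on low counts, the replicate block and a fit of only the compared groups. Without the replicate 3 libraries of all groups the count was 2 in Ly1 at 12 h, 4 in Ly1 at 24 h and 4 in Ly1 at 24 h against 12 h, 1 in U2932 at 24 h against 12 h, and 1 for the difference in response between the lines at 24 h (COQ5, -0.36, in a fit that called 26.6% of all genes). The cause was not tested; those fits have 2 libraries a group. Leaving out single libraries gave 0 to 1 members in Ly1 at 24 h, 2 to 4 members between the lines in DMSO, where the 4 were COQ2, COQ3, COQ7 and NLK, and 0 to 0 in the other comparisons.

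Between the lines in DMSO, a fit of only these groups called 2 members, COQ3 and COQ7, and ended the calls of RIPK2 (adjusted p = 0.131 by edgeR) and NLK (adjusted p = 0.0599 by edgeR). COQ2 was called there without Ly1 DMSO replicate 3 (-0.43, adjusted p = 0.0479 by edgeR) and without all replicate 3 libraries (-0.31, adjusted p = 0.0133 by edgeR). COQ8B reversed from -0.15 to 0.27 without the replicate 3 libraries (adjusted p = 0.0145 by edgeR). Library totals in place of TMM moved the members' median by 0.14 on the log2 scale in the difference in response at 24 h.

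With replicate number as a block, 0 members were called within a line, 0 in the differences in response and 4 between the lines in DMSO, so the pairing changed no call of a member. Over all genes the block called 275 of 14005 in Ly1 at 24 h against DMSO, 9, 667 and 151 of 15138 in U2932 at 12 h, at 24 h and at 24 h against 12 h, and 45 of 16191 for the difference in response at 24 h. DESeq2 called 83, 526 and 2 genes in the 3 Ly1 comparisons and 7, 124 and 64 in those of U2932. Of 1161 member values under alternatives, 1128 kept direction and side of the threshold or were uncalled throughout, and 88 uncalled ones had the other sign. The 1161 include the contrast of the lines at 12 h and at 24 h.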
